A study of Mus musculus with 4 samples.

Results

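The nuclear genes for the subunits of the oxidative phosphorylation machinery were followed through the cell types of the mouse lung. The members were all genes whose symbol starts with Nduf, Uqcr, Atp5 or Sdh, or with Cox and a digit from 4 to 8, and the genes carried by mitochondrial DNA were left out. This rule took 98 of 32285 genes, of which 97 had at least 1 unique molecular identifier (UMI, 1 counted RNA molecule) in the cells used. By role they fell into 7 core and 30 accessory subunits of complex I, 4 subunits of complex II, 8 of complex III, 20 of complex IV and 17 of ATP synthase. The other 12 members are assembly factors, which share the symbols without being subunits. Ndufb1-ps, counted by its symbol among the accessory subunits of complex I, is annotated as a long non-coding RNA (17919 UMIs).

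Single-cell RNA of lung was counted in 4 libraries made with the 3′ kit of 10x Genomics: WT mice without tumor, WT mice bearing B16/F10 melanoma (a transplantable mouse melanoma line), LAIR1KO mice without tumor and LAIR1KO mice bearing B16/F10. LAIR1 is an inhibitory receptor of immune cells that binds collagen, and LAIR1KO mice lack it. Each library pooled 3 hashtagged replicates (cells marked with a barcoded antibody before pooling), 12 in all, so that a group and its library cannot be told apart, and p-values measure the spread between these replicates. Strain, age and the route by which the melanoma cells were given are not given in the sources used here. In CPM, a gene's UMIs for each 1000000 gene UMIs, over all cells of a replicate, Lair1 stood at 19.7 to 27.8 in WT lung without tumor and at 55.4 to 69.4 with tumor, and in LAIR1KO lung at 0 without and at 0 to 0.352 with tumor. Transcripts of sex-linked genes differed too. The WT normal replicates held Ddx3y, from the Y chromosome, at 182 to 197 CPM and Xist at no more than 0.505 CPM, whereas Xist stood at 1100 to 1374 CPM in the other 3 groups. The tumor difference in WT mice and the genotype difference in normal lung therefore also set female against male cells. Their interaction, the tumor difference in LAIR1KO minus that in WT mice, includes the same male cells.

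Oxidative phosphorylation passes electrons from NADH through complex I, or from succinate through complex II, to ubiquinone, then through complex III and cytochrome c to complex IV, where oxygen is reduced. Complexes I, III and IV pump protons across the inner mitochondrial membrane, and ATP synthase uses their return to make ATP. Most subunits are encoded in the nucleus and imported, a few are made from mitochondrial DNA, and mature neutrophils are known for few mitochondria and a reliance on glycolysis, whereas alveolar macrophages live on lipid-rich surfactant and are known for active mitochondrial metabolism.

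Of 16350 barcodes, 15793 passed the filters on detected genes and mitochondrial UMIs, 8468 of them carried 1 hashtag and 7370 of those fell into named clusters. The 4 libraries held 25216301 to 28034709 gene UMIs, and any pair of them shared 3 to 7 barcodes. Cell types were named from marker genes alone, so that "neutrophil" and the like stand below for neutrophil-like cells and so on. Clusters were formed without the members. The types used most were neutrophils (1924 cells, median 1562.5 UMIs per cell), interstitial macrophages (1509 cells, 5376 UMIs), alveolar macrophages (209 cells, 8680 UMIs), alveolar type 2 epithelial cells (643 cells, 10396 UMIs), endothelial cells (1108 cells) and fibroblasts (1202 cells).

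Among cell types with at least 4 replicates, the members together took the smallest share of UMIs in neutrophils and the largest in alveolar macrophages. In neutrophils 0.758% ± 0.0705 of gene UMIs came from the 98 genes (SD, n = 12; 0.640 to 0.865%), and in alveolar macrophages 2.35% ± 0.0637 did (n = 6, all from tumor-bearing lungs; 2.28 to 2.46%). No neutrophil replicate reached the lowest replicate of any other type that had at least 4 replicates. Between these ends, the share was 1.43% ± 0.103 in B cells (n = 8), 1.47% ± 0.104 in interstitial macrophages (n = 12), 1.49% ± 0.0766 in endothelial cells (n = 12), 1.53% ± 0.0770 in fibroblasts (n = 12) and 1.58% ± 0.115 in dendritic cells (n = 8). Alveolar type 2 cells, which make surfactant, stood at 1.68% ± 0.0906 (n = 12), T cells at 1.76% ± 0.385 (n = 7) and natural killer cells at 1.83% ± 0.171 (n = 4). From B cells to natural killer cells, each type differed from the next by less than the larger SD of the pair. Among these types, only the highest T cell replicate, at 2.28%, reached the range of the alveolar macrophages. The 6 basophils or mast cells, pooled, had 0.683% (exact 95% Poisson interval 0.571 to 0.810%, for counting error only), against 0.766% in the pooled neutrophils.

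**Figure D1:**
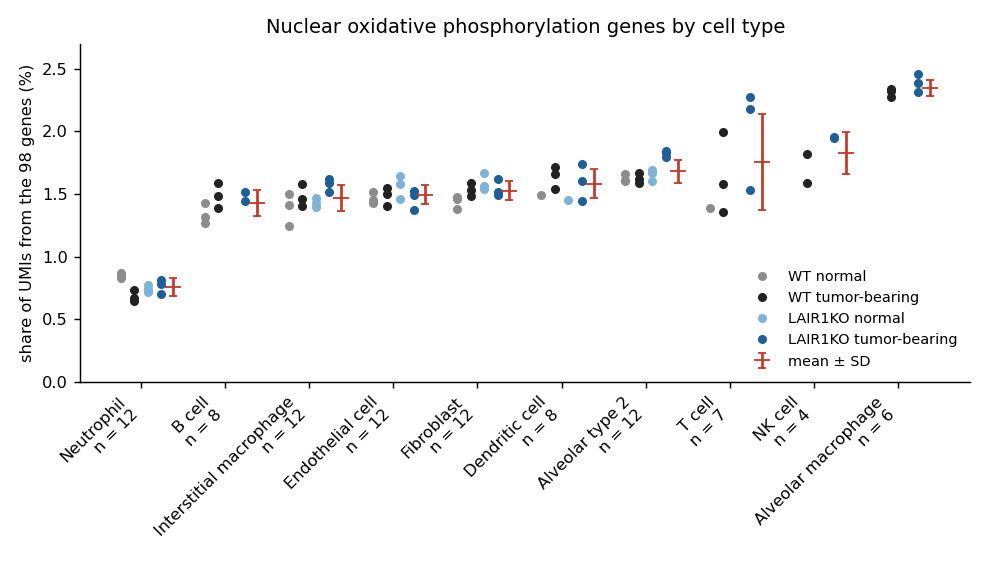
Share of gene UMIs that came from the 98 members (%, vertical axis) in each cell type with at least 4 replicates of 10 or more cells; each point is 1 hashtag replicate, coloured by library, and the red mark is the mean with its SD. Neutrophil replicates lie between 0.640 and 0.865%, below all others, and alveolar macrophage replicates between 2.28 and 2.46%.

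Within a replicate, interstitial macrophages held 1.95 ± 0.229 times the share of neutrophils (SD, n = 12; 1.44 to 2.19), and the ratio was above 1 in 12 of 12. Alveolar macrophages held 3.27 ± 0.247 times the share of neutrophils (n = 6; 2.94 to 3.66) and 1.54 ± 0.0722 times that of the interstitial macrophages of the same replicates (n = 6). Both kinds of macrophage thus lay above the neutrophils of their own library in every replicate that had them. The transcripts of mitochondrial DNA, measured beside the members, stood further apart, at 0.386% ± 0.0825 of gene UMIs in neutrophils, 3.17% ± 0.277 in interstitial macrophages and 2.86% ± 0.238 in alveolar macrophages. Their ratio to neutrophils was 8.48 ± 1.52 for interstitial and 8.46 ± 2.28 for alveolar macrophages. For each UMI of a nuclear member there were 0.509 UMIs from mitochondrial DNA in neutrophils, 2.16 in interstitial macrophages and 1.22 in alveolar macrophages. Cells over 10% mitochondrial UMIs had been removed, which limits that share in all types. With mitochondrial UMIs left out of the total, the members' share was 0.761% in neutrophils, 1.52% in interstitial and 2.42% in alveolar macrophages.

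The share in neutrophils was low at each depth compared. It was 0.761% in the 990 neutrophils with 1500 to 2500 UMIs and 0.778% in the 98 neutrophils with 2500 to 5000 UMIs, against 1.08% in 43 interstitial macrophages of the first range and 1.38% in 580 of the second. In interstitial macrophages the share itself moved with depth and was 1.68% in the deepest cells. The 2 neutrophil clusters stood at 0.744% ± 0.0684 and 0.794% ± 0.0892, and the second was higher in 10 of 12 replicates. One of 3 interstitial macrophage clusters was lower than the others, at 1.23% ± 0.151 against 1.53% in each of the other two. Transcripts on the marker lists of other cells were found in the neutrophils, where own expression was not told apart from RNA of other cells. The list for non-classical monocytes was the largest, at 2140 to 2883 CPM, and the erythroid list ran from 0 to 1581 CPM (median 13.3). The interstitial macrophage marker list summed to 246 to 922 CPM in neutrophils, with 10 of 10 markers detected, and the alveolar type 2 list to 377 to 901 CPM, with 6 of 6, beside 108549 to 155255 CPM for the neutrophil list. The alveolar macrophage list summed to 19.0 to 86.5 CPM in neutrophils, with Marco and Fabp1 at 0. In interstitial macrophages the neutrophil list summed to 518 to 2035 CPM, and the list for club and ciliated cells reached 13699 CPM in 1 WT tumor-bearing replicate (median 198). The part of this RNA in the differences was not tested.

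Gene by gene, most members were lower in neutrophils than in interstitial macrophages, but the log2 difference ran from −4.10 to 1.52. Of 98 members, 82 passed the filter on low counts, and 71 of these were lower and 7 higher in neutrophils, while 4 did not pass, Atp5f1 (log2 −0.18), Atp5e (−0.01), Ndufa3 (0.15) and Ndufb1-ps (0.17) (edgeR quasi-likelihood test with the replicate as a block, Benjamini-Hochberg adjusted p under 0.05). Differences between these cell types were common: 57.1% of the 6714 genes tested were lower and 28.9% higher by the same rule. The filter took both cell types together, whereas in neutrophils alone 49 members and 3039 genes passed it. Members and genes that passed only through the macrophages could hardly be called other than lower. The counts of lower ones therefore rest in part on the filter. At least 2-fold lower were 50 members, against 44.9% of all genes. For 52 members every neutrophil replicate lay below every macrophage replicate, and for 0 every one lay above, where all genes gave 34.1% and 14.2%. The median log2 difference of the members tested was −1.30 and that of all genes −0.72, and 58 of 82 members (70.7%) lay below the median of all genes. Scaling by library size alone moved the median of all genes to −0.89, and the members' median relative to it was −0.58 with either scaling and −0.62 to −0.40 over all settings tried.

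**Figure D2:**
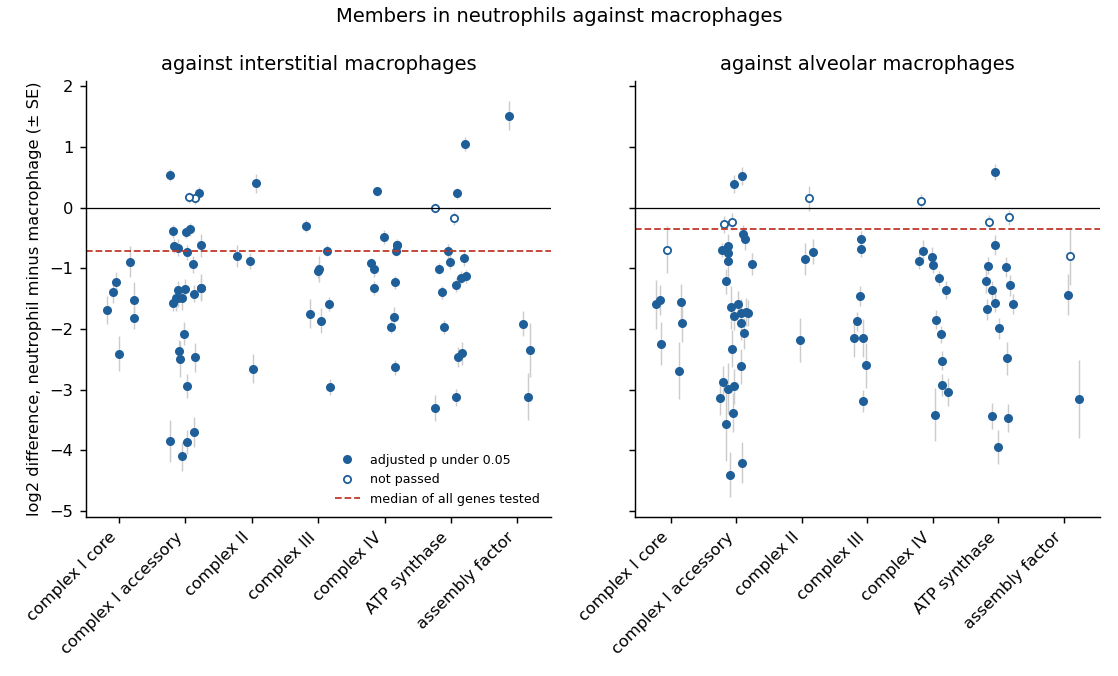
Log2 difference of each member, neutrophil minus interstitial macrophage (left, n = 12 replicates) and minus alveolar macrophage (right, n = 6), with its SE, by complex; filled points passed the adjusted threshold, the dashed line is the median of all genes tested. Most points lie below both lines, the lowest at −4.10 and −4.40, and the point of Atp5md lies above 0 in both panels.

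In complex I, the entry for electrons from NADH, all 7 core subunits were lower in neutrophils than in interstitial macrophages (median log2 difference −1.52). Ndufv1, which binds NADH, averaged 10.7 CPM in neutrophils and 33.3 CPM in interstitial macrophages, a log2 difference of −1.52 (SE 0.29; edgeR adjusted p = 8.30e-06). Ndufs1, the large iron-sulfur subunit, was at 13 against 24.8 CPM (log2 −0.89, adjusted p = 0.00176). Of 30 accessory subunits 26 were lower and 2 higher (median −1.35), and the widest gaps of all members were among them.

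Ndufa5, an accessory subunit, ran from 0 through a median of 3.93 to 16.8 CPM over 12 neutrophil replicates and from 77.2 through 104 to 126 CPM over the interstitial macrophages of the same replicates. The ranges stayed far apart, with a log2 difference of −4.10 (SE 0.242; edgeR adjusted p = 4.72e-19). Ndufc2, another accessory subunit, ran from 0 through 6.63 to 22.5 CPM in neutrophils and from 149 through 173 to 208 CPM in interstitial macrophages (log2 −3.86, SE 0.198, adjusted p = 3.74e-21). Opposite to these 2, Ndufb9 averaged 180 ± 25.1 CPM in neutrophils and 139 ± 21.9 CPM in interstitial macrophages (log2 0.54, adjusted p = 4.37e-06), and Ndufa7 220 and 206 CPM (log2 0.25, adjusted p = 0.0213). Subunits of 1 complex, whose proteins are assembled in fixed ratio, thus differed between the cell types by amounts that ranged from −4.10 to 0.54 on the log2 scale.

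Complex II, the succinate dehydrogenase that also belongs to the citric acid cycle, was split. Sdha, the flavoprotein that oxidises succinate, ran from 43.2 through 49.6 to 72.6 CPM in neutrophils and from 84.6 through 112 to 120 CPM in interstitial macrophages, without overlap (log2 −0.88, edgeR adjusted p = 4.70e-08). Sdhb, the iron-sulfur subunit, stood at 35.7 and 66.6 CPM (log2 −0.80, adjusted p = 7.74e-05). The membrane anchors went apart: Sdhc was at 7.98 against 61.8 CPM (log2 −2.66, adjusted p = 2.47e-13), while Sdhd was higher in neutrophils, at 58.6 ± 18.6 against 48.4 ± 6.77 CPM (log2 0.40, adjusted p = 0.0153).

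All 8 members of complex III, which takes electrons from ubiquinol to cytochrome c, were lower in neutrophils (median −1.32). Uqcrb, a small subunit beside the ubiquinone site, ran from 14.4 through 32.3 to 67.1 CPM in neutrophils and from 237 through 312 to 352 CPM in interstitial macrophages (log2 −2.95, SE 0.132, edgeR adjusted p = 3.10e-23). The core subunit Uqcrc1 averaged 13.8 and 63.7 CPM (log2 −1.86), the Rieske iron-sulfur protein Uqcrfs1 21.0 and 44.9 CPM (log2 −1.02) and Uqcr11 99.4 and 340 CPM (log2 −1.59). Uqcrq had the smallest gap of the complex, −0.30, less than the median of all genes.

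Of 20 members of complex IV, the cytochrome c oxidase, 12 were tested, and 11 of these were lower and 1 higher in neutrophils (median −0.97). Ndufa4, first counted as a complex I subunit and since placed in complex IV, ran from 28.7 through 44.0 to 78.5 CPM in neutrophils and from 290 through 318 to 399 CPM in interstitial macrophages (log2 −2.63, SE 0.124, edgeR adjusted p = 1.84e-22). Cox7c was at 128 against 556 CPM (log2 −1.97, adjusted p = 2.16e-21). Cox4i1, the common form of the largest nuclear subunit, differed less, at 216 to 377 CPM (median 306) against 480 to 613 CPM (median 558), still without overlap (log2 −0.72, adjusted p = 1.08e-09). Log2 differences were −1.33 for Cox5a, −0.62 for Cox6a1 and −1.02 for Cox7a2l, a factor of respiratory supercomplexes. Cox8a was the exception, at 620 ± 66.2 CPM in neutrophils and 578 ± 53.2 CPM in interstitial macrophages (log2 0.27, adjusted p = 0.00275).

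In ATP synthase 13 of 17 subunits were lower and 2 higher in neutrophils (median −1.14). The catalytic head subunits Atp5a1 and Atp5b stood at 56.4 against 246 CPM (log2 −1.97, edgeR adjusted p = 4.34e-19) and at 95.3 against 227 CPM (log2 −1.14, adjusted p = 3.76e-12). The genes Atp5g1, Atp5g2 and Atp5g3, which encode the same mature c subunit of the rotor ring, were all much lower. Atp5g1 ran from 2.50 through 10.8 to 33.5 CPM in neutrophils and from 105 through 121 to 181 CPM in interstitial macrophages (log2 −3.30, adjusted p = 5.85e-18). Atp5g2 was at 37.3 against 368 CPM (log2 −3.13) and Atp5g3 at 26.2 against 172 CPM (log2 −2.47). Atp5g2 gave on average the largest share of c-subunit UMIs, 47.6% ± 15.2 in neutrophils, where it overlapped Atp5g3 (35.9% ± 15.1), 54.7% ± 3.41 in interstitial and 46.1% ± 2.25 in alveolar macrophages.

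Atp5md, a small membrane subunit also called DAPIT, was higher in neutrophils. It ran from 249 through 390 to 651 CPM there and from 154 through 237 to 275 CPM in interstitial macrophages, with ranges that overlapped from 249 to 275 CPM (log2 1.05, SE 0.118, edgeR adjusted p = 1.16e-10). Atp5l, subunit g, was at 464 and 445 CPM (log2 0.23, adjusted p = 0.0141). Of the 7 members higher in neutrophils, Atp5md, Ndufb9 and the assembly factor Ndufaf7 passed also with library size alone as the scale, and Atp5l, Ndufa7, Cox8a and Sdhd did not.

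Only 4 of 12 assembly factors were abundant enough to test. Ndufaf7, a methyltransferase of complex I assembly, was higher in neutrophils, at 28.7 ± 13.7 against 11.3 ± 4.36 CPM (log2 1.52, edgeR adjusted p = 3.39e-07). Sdhaf4, a chaperone of Sdha, was at 3.18 against 25.3 CPM (log2 −3.12, adjusted p = 1.54e-09), and Ndufaf8 at 14.9 against 64.3 CPM (log2 −1.91). Ndufaf2, not tested, had no UMI in any neutrophil replicate, for which a floor of 3 counts over all neutrophils is 0.951 CPM, and 13.8 ± 4.00 CPM in interstitial macrophages.

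LAIR1KO normal replicate 1, with 20 interstitial macrophages, moved these values most among the replicates. Without it the median of the members was −0.93 and that of all genes −0.44, with 64 members lower and 10 higher. Where only cells with 1000 to 5000 UMIs were used, 50 of 78 members tested were lower and 11 higher. The median there was −0.68 for the members and −0.29 for all genes. In this setting Cox4i1 (log2 −0.18, adjusted p = 0.131), Cox6a1 (−0.10, adjusted p = 0.498), Sdhb (−0.21, adjusted p = 0.416) and Uqcrfs1 (−0.44, adjusted p = 0.141) lost their calls by edgeR's test. Ndufs1 lost its call with at most 5% mitochondrial UMIs and with clusters of hashtag doublets (adjusted p up to 0.135).

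Against alveolar macrophages, which could be compared in the 6 tumor-bearing replicates, most members were again lower in neutrophils. Of 82 members tested 71 were lower, 3 higher and 8 not passed (edgeR quasi-likelihood test, Benjamini-Hochberg), where 45.2% of 5033 genes were lower and 35.3% higher. At least 2-fold lower were 53 members, against 38.9% of all genes. The filter again took both cell types together, with the same limit on the counts of lower members and genes. In 76 members the neutrophil replicates lay wholly below the macrophages and in 0 wholly above, where all genes gave 46.2% and 19.5%. Cox8a is among the 76 by CPM, although its fitted difference was above 0. The members' median log2 difference was −1.60 and that of all genes −0.35, and 73 of 82 members (89.0%) lay below it. Scaling by library size alone moved both medians, to −2.21 and −0.97, and left 79 members lower and 0 higher. The share of all genes called with that scaling is not given here.

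By complex the median was −1.60 for the core and −1.73 for the accessory subunits of complex I, −0.79 for complex II, −2.01 for complex III, −1.36 for complex IV and −1.37 for ATP synthase. Ndufa5 averaged 171 ± 21.1 CPM in alveolar macrophages (log2 difference −4.40), and Ndufa11, a subunit of the complex I membrane arm, 169 CPM (log2 −4.21, edgeR adjusted p = 2.86e-13). Uqcrb stood at 549 CPM (log2 −3.19, adjusted p = 3.61e-17), Ndufa4 at 532 CPM (log2 −2.93), Cox7b at 275 CPM (log2 −3.04), Cox5a at 568 CPM (log2 −2.52, adjusted p = 7.14e-16) and Atp5g1 at 269 CPM (log2 −3.95). Ndufs1 (log2 −0.69, adjusted p = 0.105), Sdhd (0.15, adjusted p = 0.511) and Cox8a (0.11) did not pass. The 3 members called higher, Ndufa7 (0.52), Ndufb9 (0.39) and Atp5md (0.58), turned to −0.10, −0.23 and −0.04 with library size alone, so their direction against alveolar macrophages rests on the scaling. Of 80 members tested against both macrophages 68 were lower and 3 higher in neutrophils in both, and these comparisons share neutrophil replicates. Set side by side with no test, Cox5a was at 568 CPM in alveolar and 216 CPM in interstitial macrophages and Cox7b at 275 and 121 CPM, whereas Ndufc2 was at 178 and 175 CPM and Sdhc at 65.2 and 61.8 CPM.

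Other mitochondrial and glycolytic genes were read in the same comparison, with the same limit of the filter on counts of lower genes. All 13 protein genes of mitochondrial DNA were lower in neutrophils than in interstitial macrophages (median log2 −3.22). The complex IV subunit mt-Co3 was at 801 against 5970 CPM (log2 −2.76, edgeR adjusted p = 2.20e-28) and the complex I subunit mt-Nd1 at 101 against 1487 CPM (log2 −3.82). Electron carriers and ubiquinone synthesis had 5 of 6 lower (median −1.93), among them Etfa (−4.50) and Etfb (−2.56), which pass electrons from fatty acid oxidation, while Coq10b was at 505 against 162 CPM (log2 1.79). In the citric acid cycle 12 of 15 were lower and 1 higher (median −1.23), with Idh2 at 2.33 against 96.6 CPM (log2 −4.94) and Suclg2 at −3.88. Of the mitochondrial ribosome 29 of 33 were lower and 1 higher (median −1.55), where Mrpl33 alone was higher, at 997 against 167 CPM (log2 2.74). Of protein import and folding 14 of 18 were lower and 2 higher (median −2.45), with the chaperone Hspe1 at 22.4 against 650 CPM (log2 −4.70) and its partner Hspd1 at −4.41.

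Glycolysis went the other way, with 13 of 18 genes higher and 2 lower in neutrophils (median log2 0.94). The lactate exporter Slc16a3 was at 2785 against 24.8 CPM (log2 7.08) and the glucose transporter Slc2a3 at 641 against 16.1 CPM (log2 5.49), and Hk2 (−1.48) and Tpi1 (−0.90) were the lower ones (edgeR adjusted p under the threshold for each). Regulators of mitochondrial biogenesis were mixed, with 3 of 8 lower and 2 higher (median −0.05). Myc (−4.60), Pprc1 (−3.79) and Gabpa (−1.13) were lower, Gabpb1 (2.16) and Hif1a (1.90) higher, and Nrf1 (0.34) and Yy1 (−0.20) did not pass. The 2 GABP genes, Gabpa and Gabpb1, thus went opposite ways. Antioxidant genes were mixed too, with 8 of 12 lower and 4 higher (median −1.35), from Prdx1 (−4.92) and Cat (−3.80) to Prdx5 (2.63) and Txn1 (2.95). Against alveolar macrophages the counts of lower and higher were 13 and 0 of 13 for mitochondrial DNA (median −2.99), 9 and 0 of 13 for the citric acid cycle (−1.52), 28 and 1 of 33 for the mitochondrial ribosome (−1.96) and 4 and 11 of 17 for glycolysis (1.17).

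**Figure D3:**
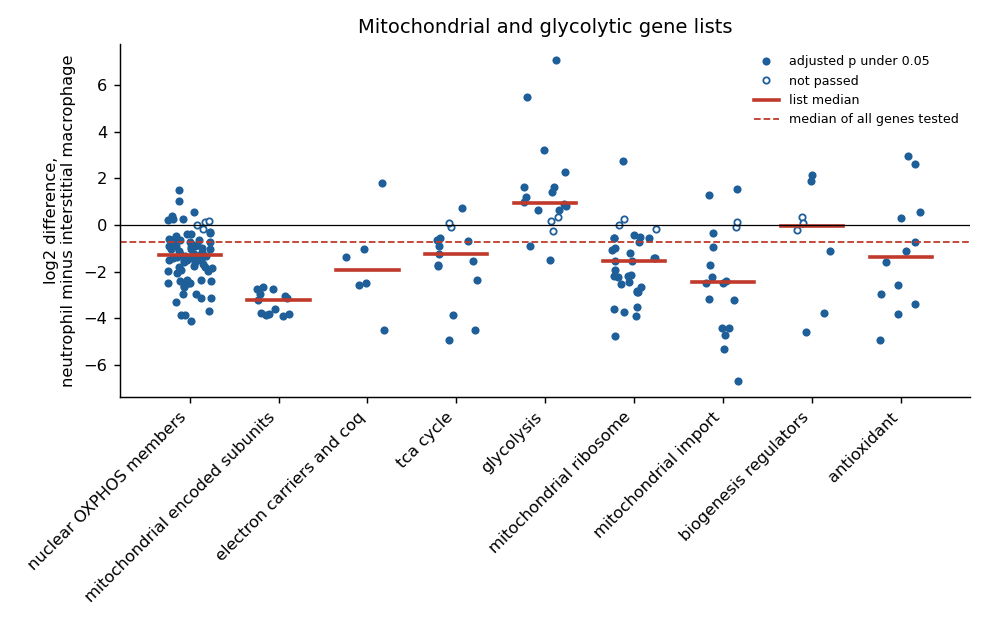
Log2 difference, neutrophil minus interstitial macrophage (vertical axis, n = 12 replicates), for each tested gene of the members and of 8 other lists; filled points passed the adjusted threshold, the red bar is the median of the list and the dashed line that of all genes tested. The median of glycolysis (0.94) is the 1 list median above 0, and that of the genes of mitochondrial DNA is the lowest (−3.22).

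Several complex IV subunits exist as isoforms from separate genes, and several of these differed widely in level between the cell types of the lung. Cox4i2, the form of subunit IV tied to oxygen sensing in the lung, was found in pericytes or smooth muscle cells at 480 CPM (exact Poisson 95% interval 424 to 540, which covers counting error only), with a UMI in 42 of 60 cells. It stood at 15.4 CPM in endothelial cells, 10.1 CPM in alveolar type 2 cells and 0.634 CPM in neutrophils. Ndufa4l2, the paralogue of Ndufa4 induced by hypoxia, followed it, at 225 CPM (187 to 267) in pericytes or smooth muscle cells, with a UMI in 39 of 60 cells, against 5.03 CPM in endothelial cells and 0 of 1924 neutrophils. These 60 cells (median 7387.5 UMIs) were spread too thinly over replicates for an SD. On mm10, Cox4i2 lies on the plus strand at chr2:152754173-152765037 and Ndufa4l2 on the plus strand at chr10:127514967-127517154.

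Cox6a2, known as the heart and muscle form of subunit VIa, was found mainly in alveolar type 2 cells. There the common form Cox6a1 averaged 200 ± 21.2 CPM (SD, n = 12; 153 to 235), a range that overlapped that of Cox6a2, with no test between them. Cox6a2 itself averaged 259 ± 70.6 CPM (n = 12; 169 to 410, median 227), with a UMI in 475 of 643 cells (73.9%). Interstitial macrophages had 5.72 ± 3.81 CPM (46 of 1509 cells) and neutrophils a UMI in 2 of 1924 cells, both at a lower median depth, while fibroblasts, at a median of 8093 UMIs, had a UMI in 8 of 1202 cells. The gene lies on the minus strand of mm10 at chr7:128205435-128206387. The 62.3 CPM of B cells came from 5 of 168 cells, 1 of which held 10 UMIs.

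Cox6b2, known as the testis form of subunit VIb, was highest in fibroblasts, at 171 ± 39.7 CPM (n = 12; a UMI in 64.1% of cells, against 7.40% of endothelial cells at a median of 4898 UMIs). It was not confined to them. It stood at 78.2 ± 22.5 CPM in alveolar macrophages (n = 6; 42.6% of cells), at 80.6 CPM pooled in 26 mesothelial cells (61.5% of cells) and at 26.0 CPM pooled in alveolar type 2 cells (21.2% of cells). Against neutrophils, at 3.81 CPM in the same replicates, the log2 difference to alveolar macrophages was −3.42. Cox8b, the muscle form of subunit VIII, was also found mainly in fibroblasts, at 29.2 CPM pooled (18.1% of cells, against 2.53% of endothelial cells). Cox7a1, the muscle form of subunit VIIa, was low, at 18.2 ± 7.23 CPM in alveolar and 7.63 CPM in interstitial macrophages and 8.52 CPM pooled in alveolar type 2 cells. It had a UMI in 0 of 1924 neutrophils, for which a floor of 3 counts over these cells is 0.951 CPM and the exact Poisson upper limit 1.17 CPM. The common Cox4i1 was found in all types, lowest in neutrophils (304 ± 47.3 CPM) and highest in alveolar macrophages (965 ± 83.2 CPM).

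**Figure D4:**
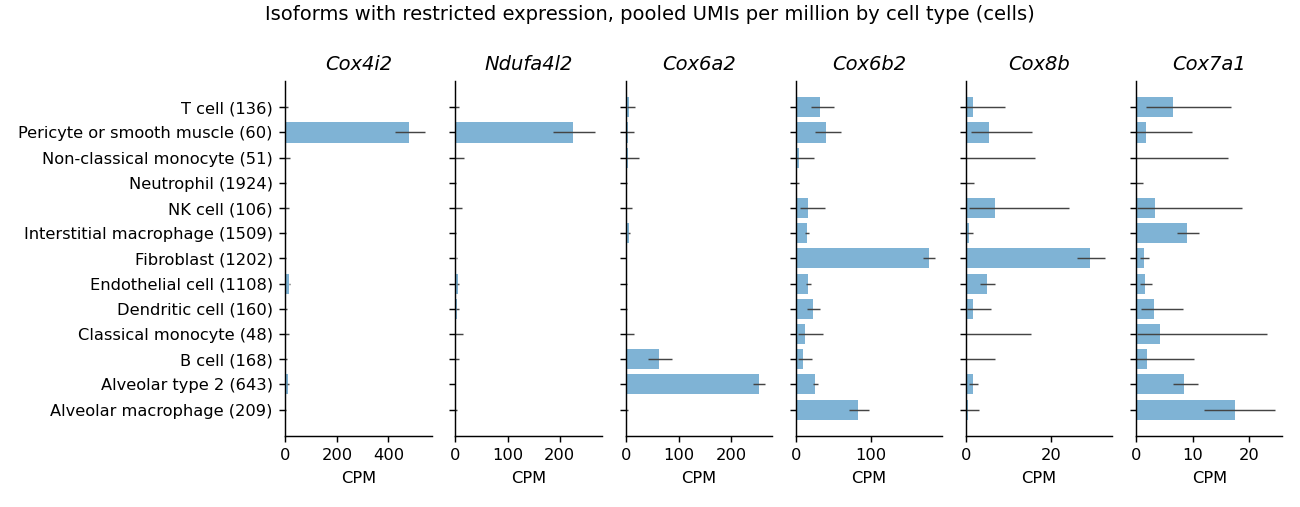
Pooled CPM (horizontal axis, its own scale in each panel) of 6 isoform genes in 13 cell types, with the number of cells in brackets and exact Poisson 95% intervals. Cox4i2 (480 CPM) and Ndufa4l2 (225 CPM) peak in pericytes or smooth muscle, Cox6a2 (252 CPM) in alveolar type 2 cells and Cox6b2 and Cox8b in fibroblasts.

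Promoters of respiratory genes are known for sites of NRF1, GABP, YY1 and Sp1, so the letters of the members' promoters were read beside their values. RefSeq promoters (GRCm38.p6, 250 bases before to 50 after the start) were found for 79 of 98 members, 84 promoters in all. On either strand, the NRF1 core GCATGCG was in 13 of 84 (15.5%, against 3.58% of 32851 promoters), the GABP core CCGGAAG in 22 (26.2% against 8.86%), the YY1 core AGATGGC in 12 (14.3% against 6.40%) and the Sp1 core GGGCGG in 39 (46.4% against 35.7%). At least 1 of the first 3 was in 39 member promoters (46.4%) and in 17.4% of all. A match is a run of letters and no evidence of binding.

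4 promoters are shown because their genes differ in response: Atp5j and Cox6a1 carry several cores, Ndufa5 had the widest gap between neutrophils and interstitial macrophages, and Atp5md was higher in neutrophils. Each line gives the 250 bases upstream of the start, 5′ to 3′ along the gene, with matches to the 4 cores in capitals. All 4 lie on the minus strand, at chr16:84834977-84835226 (Atp5j, 1 of 2 starts), chr5:115348959-115349208 (Cox6a1), chr6:24527691-24527940 (Ndufa5, 1 of 2 starts) and chr19:47090648-47090897 (Atp5md).
Atp5j: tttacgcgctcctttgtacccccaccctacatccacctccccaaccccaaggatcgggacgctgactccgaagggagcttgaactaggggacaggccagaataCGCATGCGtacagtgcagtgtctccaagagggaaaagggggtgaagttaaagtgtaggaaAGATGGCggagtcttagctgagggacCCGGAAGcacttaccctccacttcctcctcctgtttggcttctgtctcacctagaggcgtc
Cox6a1: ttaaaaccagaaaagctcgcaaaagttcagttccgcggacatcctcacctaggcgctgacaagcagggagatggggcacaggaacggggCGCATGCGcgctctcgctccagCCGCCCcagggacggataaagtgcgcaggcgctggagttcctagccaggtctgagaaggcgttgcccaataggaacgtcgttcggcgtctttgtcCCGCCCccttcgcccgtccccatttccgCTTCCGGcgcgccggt
Ndufa5: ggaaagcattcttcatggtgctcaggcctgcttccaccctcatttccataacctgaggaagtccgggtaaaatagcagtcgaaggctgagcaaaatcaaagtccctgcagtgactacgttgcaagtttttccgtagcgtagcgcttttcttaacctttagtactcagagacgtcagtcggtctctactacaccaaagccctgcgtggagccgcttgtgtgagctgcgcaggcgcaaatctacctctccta
Atp5md: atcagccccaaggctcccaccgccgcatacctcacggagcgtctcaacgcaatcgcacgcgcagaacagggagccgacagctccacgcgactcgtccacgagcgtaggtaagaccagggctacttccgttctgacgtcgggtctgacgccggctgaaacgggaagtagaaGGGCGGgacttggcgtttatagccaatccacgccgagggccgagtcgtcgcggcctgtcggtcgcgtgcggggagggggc
The capitals mark in Atp5j the NRF1 core, which reads on both strands here, then YY1 and GABP, and in Cox6a1 the NRF1 core, Sp1 on the opposite strand 2 times and GABP on the opposite strand. Ndufa5 has none of the 4 in this window, and Atp5md has 1 Sp1 core in the bases printed. The promoters counted above also take in bases after the start, which are not printed. Over that full promoter Atp5md has a GABP core too, and the GABP medians below count it among the members with that core. The contrast of Atp5md with Atp5j and Cox6a1 therefore depends on the window printed. The starts not shown differ: the 250 bases before the other start of Atp5j hold 1 Sp1 core alone, and those before the other start of Ndufa5 hold 1 Sp1 core, so the contrast between these genes depends on the start printed, and the starts were chosen with the matches known. Members with the NRF1 core had a median log2 difference, neutrophil minus interstitial macrophage, of −0.80 (11 tested) and those without it −1.33 (57). The medians were −0.80 (19) and −1.36 (49) for GABP, −1.36 (11) and −1.33 (57) for YY1 and −1.23 (30) and −1.35 (38) for Sp1.

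Few members were called for tumor or LAIR1 genotype in any cell type, which with at most 3 replicates a group does not show the rest unmoved. Over 31 comparisons of cell type and contrast, edgeR's quasi-likelihood test (Benjamini-Hochberg over all genes) called a member in 2, and 3 members in all, whereas DESeq2 called a member in 5, and 9 members in all. In the other 29 comparisons 0 members passed edgeR, with 0 to 17 members at an unadjusted p under 0.05 over the 31. Of all genes, 0 to 9.02% were called and 4.37 to 20.8% had such an unadjusted p. The tumor difference in WT mice, the genotype difference in normal lung and the interaction share the WT normal replicates. By genotype in tumor-bearing lung, 15 of 87 members lay wholly higher in LAIR1KO alveolar type 2 cells (17.2%, all genes 4.32%). In interstitial macrophages 14 of 87 did (16.1%, 6.18%) and in neutrophils 8 of 49 (16.3%, 6.32%). In the same order, 3, 2 and 2 lay wholly lower (3.45, 2.30 and 4.08%, all genes 8.07, 6.93 and 8.56%). None of these members passed edgeR's test in that contrast.

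In alveolar type 2 cells of LAIR1KO mice, 2 of 87 members tested rose with tumor, where 1.78% of 7991 genes rose and 4.52% fell. Cox6a2 stood at 207, 169 and 224 CPM in the 3 LAIR1KO normal replicates and at 282, 410 and 366 CPM in the 3 LAIR1KO tumor-bearing ones. Each tumor-bearing replicate lay above each normal one, and the log2 difference was 0.87 (SE 0.165, edgeR adjusted p = 0.00399). In WT mice the values were 229, 220 and 209 CPM without and 224, 302 and 271 CPM with tumor, which overlap (log2 0.23, adjusted p = 0.811), and the difference between the genotypes' tumor differences did not pass (log2 0.64, adjusted p = 0.147).

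Uqcrq, the small complex III subunit, stood at 207, 163 and 233 CPM in LAIR1KO normal and at 325, 324 and 246 CPM in LAIR1KO tumor-bearing alveolar type 2 cells, again without overlap (log2 0.61, SE 0.166, edgeR adjusted p = 0.0378). Of 16 other settings, Cox6a2 passed in 14 and Uqcrq in 7, with adjusted p up to 0.267 and 0.733. Uqcrq lost its call without LAIR1KO normal replicate 1 (log2 0.64) or 2 (0.49), or without LAIR1KO tumor-bearing replicate 1 (0.53) or 2 (0.57). The median of all members in this comparison was 0.17 and that of all genes 0.00, with 17 members at an unadjusted p under 0.05 (18.5% of all genes). The share of UMIs from the members was 1.66% without and 1.82% ± 0.0259 with tumor in alveolar type 2 cells of LAIR1KO mice, and 1.63% in both WT groups. Markers of other cells moved with it. In LAIR1KO normal alveolar type 2 cells the endothelial list summed to 1167 to 2084 CPM, the interstitial macrophage list to 766 to 2793 CPM and the alveolar type 2 list to 123607 to 129176 CPM, against 145 to 324, 439 to 520 and 155399 to 173020 CPM in LAIR1KO tumor-bearing ones. The lists for classical monocytes, dendritic cells, basophils or mast cells, and club and ciliated cells did not overlap between these groups either. The part of these in the result was not tested.

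Among the 49 members tested in neutrophils, 1 differed by genotype in normal lung, Atp5md. It stood at 460, 651 and 601 CPM in WT normal and at 274, 337 and 336 CPM in LAIR1KO normal neutrophils, without overlap (log2 −0.76, SE 0.179, edgeR adjusted p = 0.0408, where 0.263% of 3039 genes were lower). In WT tumor-bearing neutrophils it was at 249, 450 and 370 CPM, a tumor difference that did not pass (log2 −0.63, adjusted p = 0.0611), and in LAIR1KO tumor-bearing ones at 410, 363 and 485 CPM. The interaction did not pass (log2 1.02, adjusted p = 0.0875). The genotype call held in 10 of 16 other settings, with adjusted p up to 0.273. It was lost without any 1 of the LAIR1KO normal replicates 1 (log2 −0.71), 2 (−0.82) and 3 (−0.81) and without WT normal replicate 2 (−0.67) or 3 (−0.74). Markers of other cells moved with it: from WT normal to LAIR1KO normal neutrophils the alveolar type 2 list went from 756 to 901 CPM to 377 to 504 CPM, the club and ciliated list from 108 to 123 CPM to 209 to 332 CPM and the endothelial list from 61.9 to 92.1 CPM to 110 to 202 CPM, all without overlap, and the low T cell list did not overlap either. The replicates' median UMIs per cell in the 2 neutrophil clusters were 1805.5 to 2076.5 in WT normal and 1433 to 1603.5 in LAIR1KO normal lung, and the part of these in the call was not tested. The call sets female LAIR1KO cells against male WT cells, which cannot be told apart from genotype.

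The neutrophil share itself was highest in WT normal lung, at 0.827, 0.841 and 0.865%, and lowest in WT tumor-bearing lung, at 0.640, 0.668 and 0.734%. These 2 groups did not overlap, and LAIR1KO normal (0.713, 0.771 and 0.744%) and tumor-bearing neutrophils (0.701, 0.782 and 0.812%) lay below the WT normal ones and overlapped the WT tumor-bearing ones. In WT neutrophils 16 of 49 members (32.7%) were lower in each tumor-bearing than in each normal replicate, where all genes gave 12%, and 1 was higher in each, where all genes gave 7.83%. The members' median was −0.24 and that of all genes 0.01, and 41 of 49 were negative. 0 of 49 passed edgeR's test after adjustment, 8 of 49 had an unadjusted p under 0.05 (14% of all genes), and DESeq2 called 1. The members of smallest p were Atp5md and Cox7b, a complex IV subunit at 46.0, 43.0 and 36.1 CPM without and 14.4, 11.7 and 14.2 CPM with tumor (log2 −1.55, adjusted p = 0.0934). In LAIR1KO neutrophils the median was 0.00, 26 of 49 were negative, and 1 had an unadjusted p under 0.05. The alveolar type 2 marker list summed to 756 to 901 CPM in WT normal and 733 to 850 CPM in WT tumor-bearing neutrophils, and the interstitial macrophage list to 246 to 353 and 263 to 376 CPM, so both overlapped between these groups. Other values moved with the share. From WT normal to WT tumor-bearing neutrophils the list for club and ciliated cells went from 108 to 123 CPM to 302 to 402 CPM and the neutrophil list from 113755 to 124067 CPM to 124915 to 146619 CPM, both without overlap, and the T cell list, which was low, did not overlap either. The replicates' median UMIs per cell in the 2 neutrophil clusters were 1805.5 to 2076.5 in WT normal and 1342 to 1576 in WT tumor-bearing lung. The part of these in the difference was not tested. By their transcripts the WT normal cells were also male and those of the other groups female. Sex therefore cannot be told apart from tumor in the WT difference.

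In interstitial macrophages the share was 1.39% ± 0.131 without and 1.48% ± 0.0897 with tumor in WT mice, and 1.43% ± 0.0388 without and 1.57% ± 0.0511 with tumor in LAIR1KO mice (SD, n = 3 each). In the LAIR1KO mice 17 of 87 members were higher in each tumor-bearing replicate, where all genes gave 7.69%, but 0 passed edgeR's test and 9 had an unadjusted p under 0.05 (8.06% of all genes), and DESeq2 called 0. In the same cells, from LAIR1KO normal to LAIR1KO tumor-bearing lung, the neutrophil list went from 1073 to 2035 CPM to 767 to 1054 CPM, the club and ciliated list from 156 to 202 CPM to 355 to 988 CPM and the classical monocyte list from 811 to 1124 CPM to 1242 to 1424 CPM, all without overlap, and their part in the count was not tested. Endothelial cells stood at 1.46 to 1.56% and fibroblasts at 1.44 to 1.59% by group. In fibroblasts 17 of 87 members lay wholly higher in LAIR1KO normal than in WT normal replicates (19.5%, all genes 7.63%). Another 4 lay wholly lower (4.60%, all genes 6.91%), and this contrast also sets female against male cells. By genotype in tumor-bearing lung, 1 fibroblast member lay wholly higher and 1 wholly lower (1.15% each, all genes 2.99 and 8.34%). Alveolar macrophages averaged 2.31% in WT and 2.39% in LAIR1KO tumor-bearing lung.

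**Figure D5:**
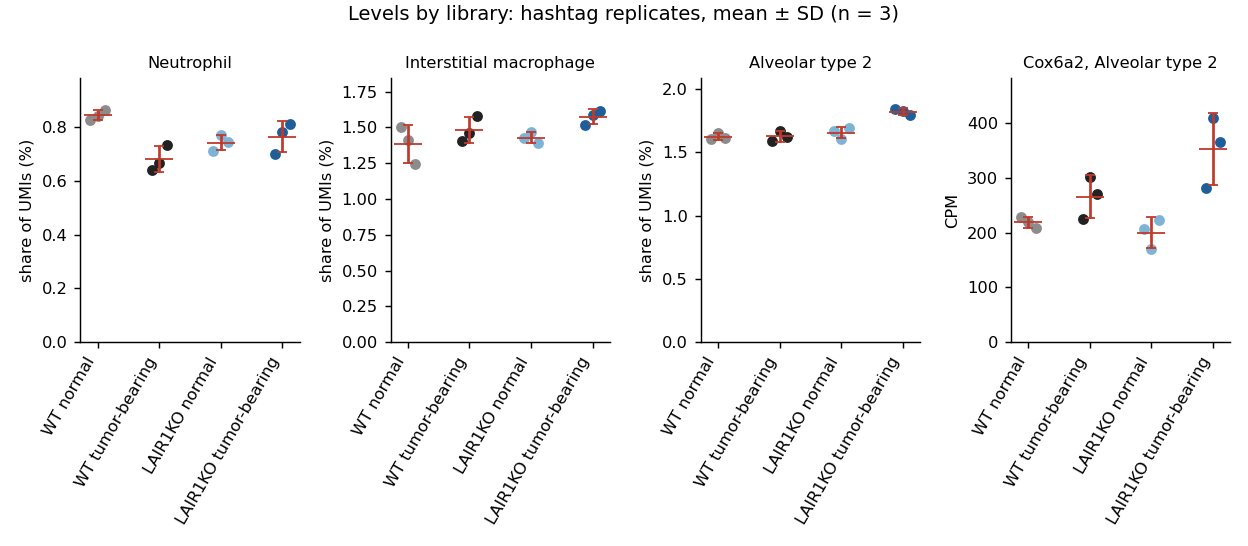
Share of gene UMIs from the members (%) in neutrophils, interstitial macrophages and alveolar type 2 cells, and Cox6a2 in alveolar type 2 cells (CPM), by library; points are hashtag replicates and red marks the mean with its SD (n = 3). WT normal neutrophils (0.827 to 0.865%) lie above WT tumor-bearing ones (0.640 to 0.734%), and Cox6a2 in LAIR1KO tumor-bearing replicates (282 to 410 CPM) lies above LAIR1KO normal ones (169 to 224 CPM). By their transcripts the WT normal cells are male and those of the other groups female.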

How the data were processed

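The authors deposited, for each of 4 libraries, a matrix of counts (UMIs per gene and hashtag antibody and barcode), made from a 10x 3′ kit. The submitters' processing notes name Cell Ranger 4.0.0, STAR, R 4.0.0 and Seurat 3.2.0, and the build mm10. Counting at the 3′ end gives no gene length effect, and how reads shared with near-identical gene copies were treated is not given in the sources used here. Barcodes with at least 300 genes and at most 10% mitochondrial UMIs were kept. Hashtags were called with HTODemux (Seurat 5.3.0, R 4.3.3, quantile 0.99), and doublets of hashtags (18.8%) and barcodes with no hashtag (27.6%) were set aside. Cells were clustered with scanpy 1.11.5, leidenalg 0.10.2 and numpy 2.4.6 on Python 3.11.15 (2000 variable genes without the members and mt- genes, 30 components, 15 neighbours, resolution 1) into 32 clusters. A cluster was named from marker lists with at least 3 markers, and clusters with over 50% hashtag doublets stayed unnamed, a rule set after seeing the clusters. The annotation of gene positions is GENCODE on the same build. Doublets within a hashtag were addressed by Scrublet in 1 alternative only.

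Sums of UMIs over at least 10 cells of a type and replicate entered the quasi-likelihood F test of edgeR 4.0.16 (with limma 3.58.1, TMM and filterByExpr), adjusted by Benjamini-Hochberg over all genes, threshold 0.05. The replicate was a block between cell types, which came from the same hashtag replicate, and all groups shared the spread in tumor and genotype contrasts. DESeq2 1.42.0, other filters, scalings, resolutions, hashtag rules and leaving out each replicate were alternatives, and the fits were tested on simulated data. CPM are UMIs scaled to a total of 1000000 per replicate and type. For each complex the text names the 2 members of smallest p in each direction and a fixed set of anchors such as Ndufv1, Sdha and Cox4i1, isoform pairs by cell type, and in tumor and genotype contrasts up to 4 members in each direction, or the 2 of smallest p where none passed. Members named beyond that rule, and the promoters shown, were chosen after their values were seen. The members and lists were chosen with earlier results of these data known.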

Additional observations from a re-analysis of the deposited data

Results flagged for a closer look

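In alveolar type 2 cells, 4 genes of the lists read beside the members passed for the interaction, the tumor difference in LAIR1KO minus that in WT mice. The test was edgeR's quasi-likelihood test (Benjamini-Hochberg over all genes). The interaction includes the WT normal cells, male by their transcripts, so a genotype effect on the tumor difference cannot be told apart from sex. Of 7991 genes, 0.651% passed with an interaction above 0 and 1.68% with one below 0. The log2 interaction was 0.35 for mt-Co1 (adjusted p = 0.0187), 0.37 for mt-Co3 (adjusted p = 0.0390), 0.55 for mt-Nd2 (adjusted p = 0.0391) and 2.87 for Ppargc1a (adjusted p = 0.0345), a coactivator of mitochondrial biogenesis. In WT mice mt-Co1 averaged 14907 CPM without and 14141 CPM with tumor, and in LAIR1KO mice 11869 and 13131 CPM. In the same order, mt-Co3 was at 9930, 9036, 7865 and 8421 CPM, mt-Nd2 at 2935, 2130, 1946 and 1885 CPM and Ppargc1a at 16.4, 7.28, 9.27 and 24.5 CPM. The 3 mt- genes were already lower in LAIR1KO normal than in WT normal cells, where 2.57% of genes were lower. The log2 differences were −0.41 for mt-Co1, −0.42 for mt-Co3 and −0.67 for mt-Nd2 (edgeR adjusted p = 0.000175, 0.000555 and 0.000420). Further mt- genes, such as mt-Atp6 (−0.45), were lower too. The calls held in 17 of 22 other settings for mt-Co1, 13 for Ppargc1a, 11 for mt-Co3 and 10 for mt-Nd2. In the same cells, markers of endothelial cells (1167 to 2084 CPM) and of classical monocytes (318 to 355 CPM) stood highest in LAIR1KO normal lung. The alveolar type 2 list stood lowest there (123607 to 129176 CPM). None of these 3 lists overlapped the other groups, and their part in these values was not tested.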

How the results depend on the processing

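Over other settings of the processing, 1096 values of single genes kept their direction and side of the threshold, 69 lost the call, 1 gained it and 3 turned. The 3 that turned were Atp5md (−0.036), Ndufa7 (−0.10) and Ndufb9 (−0.23) against alveolar macrophages with library size alone. The count of members lower in neutrophils was 64 to 71 against interstitial and 70 to 73 against alveolar macrophages over fits that left out 1 replicate. The count of members higher was less stable. Against interstitial macrophages it was 3 with library size alone, 11 with another hashtag rule, 11 with cells of 1000 to 5000 UMIs, 11 with clusters of hashtag doublets (an alternative added after seeing the data) and 6 to 10 with 1 replicate left out, where Ndufa7 lost its call without WT normal replicate 3, as it did with DESeq2 and with library size alone, and Sdhd without WT tumor-bearing replicate 2. Against alveolar macrophages it was 1 with DESeq2, 5 with another hashtag rule, 0 with library size alone and 2 to 3 with 1 replicate left out. Ndufa7 and Ndufb9 lost the call there with DESeq2, and Ndufb9 also with no filter and without WT tumor-bearing replicate 2. Without the replicate block, 64 members were lower and 10 higher against interstitial and 74 lower and 3 higher against alveolar macrophages. These counts over settings are given without the share of all genes called in the same fit. No paired analysis was possible because the labels give the replicates of different libraries no shared numbers, for tumor and genotype. The share in alveolar macrophages was 2.42% with mitochondrial UMIs left out of the total and 2.23% without assembly factors and pseudogenes.

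Members called in tumor and genotype contrasts moved by 1 or a few genes. For tumor in LAIR1KO alveolar type 2 cells 0 passed with at most 5% mitochondrial UMIs or resolution 0.5, 1 with library size alone or only the groups of the contrast, and 1 to 3 with 1 replicate left out. For genotype in normal lung, neutrophils had 0 with clusters of hashtag doublets and 0 to 1 with 1 replicate left out. For tumor in WT neutrophils 1 passed with DESeq2, another hashtag rule, library size alone, no filter or clusters of hashtag doublets, and 0 to 1 with 1 replicate left out, the 1 without WT tumor-bearing replicate 2. The interaction in neutrophils had 1 with DESeq2, another hashtag rule or no filter and 0 to 1 with 1 replicate left out, and in alveolar type 2 cells 1 without Scrublet doublets. Tumor in LAIR1KO endothelial cells had 1 with no filter and 0 to 1 with 1 replicate left out, and B cells had 1 with no filter for tumor in WT and 1 for genotype in tumor-bearing lung. Genotype in tumor-bearing alveolar type 2 cells had 4 with DESeq2. In all other contrasts and types no member passed with any 1 replicate left out. The causes were not tested. Neutrophils against alveolar macrophages with 1000 to 5000 UMIs could not be fitted, since too few of the latter had so few UMIs. Depth limits the neutrophils most, where 49 members could be tested by group.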

Other observations

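AA467197, a paralogue of Ndufa4 that the symbols do not take in, was looked at after values were seen. It averaged 242 ± 33.0 CPM in neutrophils (SD, n = 12; 181 to 292), 554 ± 138 CPM in dendritic cells, 19.7 ± 17.7 CPM in interstitial and 8.05 ± 9.39 CPM in alveolar macrophages. No other type with at least 4 replicates averaged above 13.4 CPM. Types with fewer replicates, among them the monocytes, were not read for this gene. Its interstitial macrophage replicates ran from 0 to 49.3 CPM. There it was called higher with tumor in WT mice (log2 4.96, edgeR adjusted p = 0.0484, where 0.379% of 7384 genes were higher). That contrast also sets female against male cells. In neutrophils AA467197 thus stood above Ndufa4 itself (46.5 CPM), which was at 209 CPM in dendritic cells and 333 CPM in interstitial macrophages. The log2 difference of AA467197 in neutrophils was 3.93 against interstitial (SE 0.222, edgeR adjusted p = 9.90e-20) and 5.48 against alveolar macrophages (adjusted p = 4.28e-18), the opposite direction to Ndufa4. Whether the proteins follow these transcripts was not measured.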
